A study of Homo sapiens with 9 samples.

Results

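The genes described here moved the same way after loss of either ATPase of the SWI/SNF chromatin remodelling complex in H358, an established human line of non-small cell lung carcinoma. RNA was sequenced in 3 groups of 3 libraries each, namely parental cells, cells whose SMARCA4 gene, which encodes BRG1, was knocked out by CRISPR, and cells with the same kind of knockout of SMARCA2, which encodes BRM. All groups shared RPMI culture medium with added serum, and no drug treatment is named in the labels. A gene was counted as a member when its level in all 6 knockout libraries lay above, or in all 6 lay below, its level in all 3 parental libraries. Of 18205 genes tested, 2309 lay above (12.7%) and 2048 lay below (11.2%). Both knockouts are compared with the same 3 parental libraries, which are the only control, so an effect of editing, of further culture or of library preparation cannot be told apart from loss of either gene. The labels give neither clones nor pools for the knockouts, and they number the replicates without saying that these came from separate cultures, so p-values reflect the scatter among these libraries alone, possibly technical.

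SWI/SNF complexes use ATP hydrolysis to slide or evict nucleosomes and thereby open enhancers and promoters. Each complex carries 1 ATPase, BRG1 or BRM, so the enzymes are mutually exclusive within a complex and partly interchangeable between complexes. Lung carcinomas often carry mutations of SMARCA4, and cells without BRG1 are known to depend on BRM.

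The libraries held 31969961 to 40679073 estimated reads. On the second principal component of log2 levels, with 27.7% of the variance, the parental libraries lay apart from all 6 knockout libraries. The first component, with 58.9%, set the BRG1 knockout libraries (78.5 to 94.9) against those of the BRM knockout (-66.2 to -61.0), with the parental libraries between (-31.6 to -16.3), so the larger axis separates the knockouts from each other. Libraries of BRG1 knockout replicates 1 and 2 stood apart in ribosomal protein genes, which took 8.26% and 8.73% of their reads, against 4.03% to 5.27% in the other 7. Annotated rRNA, mitochondrial rRNA included, took 0.154% to 0.220% of parental reads and 0.357% to 0.651% of knockout reads, and transcripts with retained introns took 2.35% to 2.45% and 2.48% to 3.22%. Neither range overlapped between parental and knockout libraries, and the part of these shares in the results below was not tested. The epithelial label held in the parental line, where KRT8 was counted with 60486 to 82445 reads per library. Markers of blood cells went both ways. CD3E, a T cell marker, had at most 1 read and PTPRC, carried by all leukocytes, had at most 20 reads in any library. HBB had at most 22 reads and CD14 had 30 to 97, while CD68 had 294 to 1821, the most in BRM knockout replicate 2. In bulk RNA, fewer cells of a type and less RNA per cell cannot be told apart.

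Levels are given in CPM, counts relative to the size of the library after scaling by trimmed means of M values (TMM), always in the order of replicates 1, 2 and 3, and changes as log2 fold changes ± an approximate standard error. Adjusted p-values come from edgeR's quasi-likelihood test, corrected across the whole table, and a gene under 0.05 is called. The targeted genes matched their labels. SMARCA4 stood at 224 ± 17.4 CPM (SD, n = 3) in parental cells, 22.9 ± 1.51 in the BRG1 knockout and 245 ± 4.72 in the BRM knockout. SMARCA2 stood at 54.3 ± 4.47, 45.2 ± 14.8 and 10.6 ± 1.34 CPM in the same order. Each ATPase gene thus fell in its own knockout, and the ranges of the other knockout overlapped the parental range.

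With the knockouts weighted equally, 3558 genes were higher (19.5% of those tested) and 3561 were lower (19.6%), which made 39.1% called in either direction. Of the called genes, 4018 were also members, while 3101 had overlapping ranges. The call and the ordering use the same libraries, so the 92.3% of members above and 92.1% of members below that were called are descriptions. For the members above, the median log2 change was 1.15 in the BRG1 knockout and 0.97 in the BRM knockout. For those below, the medians were -0.99 and -0.95. Over all genes tested the median of the equally weighted change was 0.02. The lowest library on the higher side stood more than 2-fold from the highest on the lower side for 280 members above and 228 below, and more than 4-fold for 66 and 75. At the edge of the rule, PSMB5 was included with a lowest knockout level of 175.82 CPM over a highest parental level of 175.78, and NXPE3 was excluded at 24.351 under 24.352. FH was included below at 38.226 under 38.233 CPM, and LINC00847 was excluded at 10.568 over 10.564. The plot of both knockouts' changes shows the members in the 2 quadrants that the rule selects.

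**Figure D1:**
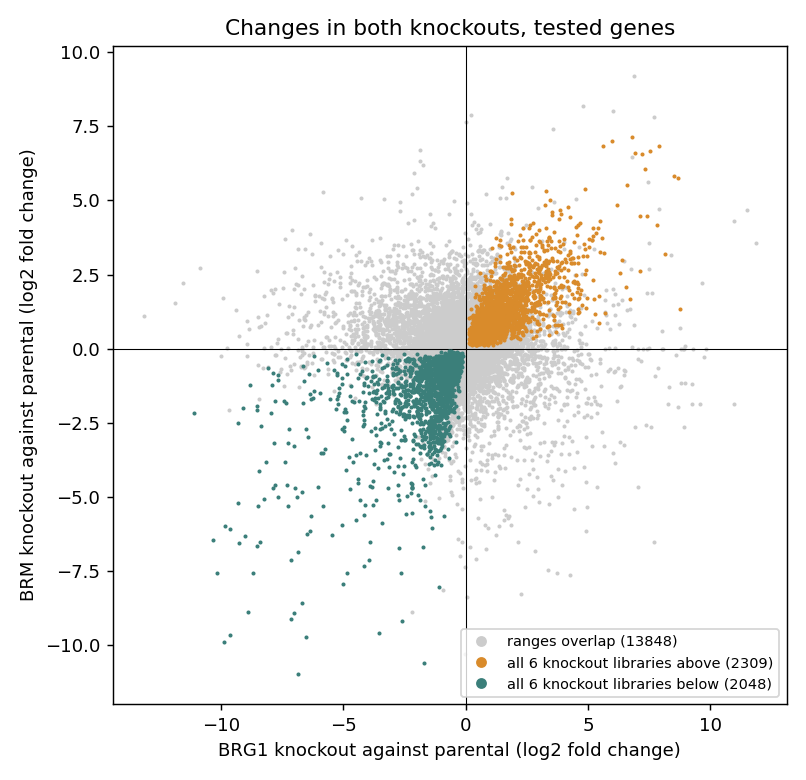
Log2 fold change of each tested gene in the BRG1 knockout (horizontal) and in the BRM knockout (vertical), both against the same 3 parental libraries. The 2309 genes above (orange) and 2048 below (green) lie in the quadrants fixed by the rule, and grey points are genes with overlapping ranges.

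The knockouts did not move their shared genes by the same amount. A direct test of BRG1 knockout against BRM knockout was called for 45.3% of all genes tested, for 672 members above (29.1%) and for 738 below (36.0%). Among the 672, the rise was larger in the BRG1 knockout for 509 genes and larger in the BRM knockout for 163. Among the 738, the fall was larger in the BRG1 knockout for 359 and in the BRM knockout for 379. The rule keeps only genes that moved one way in both groups, which lowers these shares by its own construction.

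MAF, a transcription factor of the large Maf basic leucine zipper family, showed the widest rise. It was nearly silent in parental cells, at 1.07, 0.235 and 0.525 CPM. The BRG1 knockout reached 55.1, 74.2 and 69.5 CPM and the BRM knockout 82.9, 49.6 and 122. All 6 knockout libraries lay far above the parental range, and the knockouts overlapped each other. The log2 change was 6.79 ± 0.50 in the BRG1 knockout (adjusted p = 6.5e-06) and 7.15 ± 0.51 in the BRM knockout (adjusted p = 3.8e-05), and their difference was not called (-0.36 ± 0.37, adjusted p = 0.45). SOD3, the secreted superoxide dismutase, stood at the other end. Parental libraries held 11.6, 9.97 and 8.54 CPM, or 1119 reads in all, against 1 read over the 3 BRG1 knockout libraries and 1 read over the 3 BRM knockout libraries. After scaling, the parental level was 1085 times that of the BRG1 knockout (95% counting interval 194 to 42875) and 1091 times that of the BRM knockout (195 to 43138), and these intervals cover counting error only. The 250 bases before the RefSeq start of each gene are shown because these genes mark the ends of the shared response. They come from RefSeq on GRCh38.p14, 5′ to 3′ on the gene's strand, with CpG dinucleotides in capitals. The MAF window, chr16:79600738-79600987 on the minus strand, holds 16 CpG, an observed-to-expected ratio of 0.88. The SOD3 window, chr4:24795323-24795572 on the plus strand, holds 10, a ratio of 0.42, against a median of 0.80 over the windows of 12462 tested genes.
MAF: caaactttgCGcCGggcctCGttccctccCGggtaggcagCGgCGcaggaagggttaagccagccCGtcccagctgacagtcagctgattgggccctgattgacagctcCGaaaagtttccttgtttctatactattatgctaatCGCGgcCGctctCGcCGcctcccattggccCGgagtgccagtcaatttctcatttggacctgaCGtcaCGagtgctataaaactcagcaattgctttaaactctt
SOD3: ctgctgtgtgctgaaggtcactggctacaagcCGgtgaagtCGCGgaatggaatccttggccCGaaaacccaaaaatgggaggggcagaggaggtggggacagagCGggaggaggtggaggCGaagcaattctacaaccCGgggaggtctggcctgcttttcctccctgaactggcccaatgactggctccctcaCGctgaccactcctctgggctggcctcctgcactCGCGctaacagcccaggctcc

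The next genes by size of rise were OLFM2, SYNGR1, GNAO1 and KCTD15. OLFM2, a secreted olfactomedin, rose from 1.20, 0.574 and 0.405 CPM to 48.3, 62.6 and 46.6 in the BRG1 knockout and to 22.3, 17.1 and 21.7 in the BRM knockout. SYNGR1, a synaptic vesicle membrane protein, rose from 1.20, 0.209 and 0.334 to 31.0, 28.8 and 17.5 and to 12.7, 10.4 and 10.6. GNAO1, the alpha subunit of the G protein Go, rose from 2.83, 1.54 and 1.19 to 67.3, 57.9 and 106 and to 31.2, 30.6 and 30.2. In all 3 genes the BRG1 knockout libraries also lay above every BRM knockout library. The difference between the knockouts was called for OLFM2 (1.37 ± 0.27, adjusted p = 0.0021), SYNGR1 (1.20 ± 0.42, adjusted p = 0.037) and GNAO1 (1.33 ± 0.29, adjusted p = 0.0033). KCTD15, a BTB-domain protein, followed the same order, from 0.737, 1.44 and 0.930 to 39.5, 42.8 and 42.6 and to 18.1, 13.3 and 15.3 CPM.

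A further group rose by amounts that the test did not separate between the knockouts. ITGB3, the integrin beta3 chain of the vitronectin receptor, went from 11.2, 2.66 and 2.07 CPM to 56.8, 48.3 and 78.5 in the BRG1 knockout and to 52.0, 225 and 113 in the BRM knockout. All 6 knockout libraries stayed above parental replicate 1, which lay apart from the other parental libraries. LBH, a transcription cofactor, went from 10.6, 7.38 and 7.68 to 106, 117 and 49.8 and to 129, 68.1 and 140. MMP11, the matrix metalloproteinase stromelysin-3, went from 1.17, 0.417 and 0.620 to 16.9, 23.2 and 10.6 and to 13.4, 8.25 and 9.26. For ITGB3, LBH and MMP11 the differences between the knockouts were -1.09 ± 0.65, -0.30 ± 0.34 and 0.72 ± 0.36 (adjusted p = 0.20, 0.49 and 0.13), which leaves unequal changes possible. Of the remaining genes chosen by the same rule, C17orf107, LOXL4, PALM and LZTS3 rose by 3.52 to 4.11 on the log2 scale. LOXL4, a lysyl oxidase that crosslinks collagen, was the least even of these, with 2.98, 26.8 and 5.42 CPM in the BRM knockout over a highest parental level of 2.55.

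Among the largest falls, GPR158, an orphan G protein-coupled receptor, had 1606 parental reads, 1 read in the BRG1 knockout and 8 in the BRM knockout. CALB2, the calcium-binding protein calretinin, fell from 14.2, 18.8 and 15.1 CPM to 0.483, 0.842 and 0.138 in the BRG1 knockout and to 0, 0.0301 and 0.152 in the BRM knockout. SEMA5A, a semaphorin guidance cue, fell from 27.9, 22.3 and 23.1 to 2.33, 1.68 and 0.913 and to 0.536, 0.0903 and 0.152. Both CALB2 and SEMA5A thus fell further in the BRM knockout (differences 2.89 ± 0.81 and 2.63 ± 0.52, adjusted p = 0.014 and 0.0020). PDE2A, a cyclic nucleotide phosphodiesterase, fell further in the BRG1 knockout, from 25.7, 30.2 and 31.7 CPM to 0.654, 0.474 and 0.415, against 1.23, 4.55 and 1.87 in the BRM knockout. SH3TC2, which acts in endosomal recycling, fell from 18.3, 35.9 and 35.4 to 1.22, 1.68 and 1.38 and to 0.858, 2.14 and 0.936. The knockouts overlapped each other in SH3TC2, and all 6 libraries lay far under the lowest parental one. PLIN2, the coat protein of lipid droplets, fell from 34.0, 43.5 and 35.4 to 2.59, 1.03 and 2.10 and to 4.59, 3.16 and 2.10.

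The other genes chosen among the largest falls were TMEM139, TRHDE, GBP4, ARL14EPL and PKNOX2, which fell by 3.82 to 5.14 on the log2 scale. Parental levels of PKNOX2, a homeodomain transcription factor, varied widely, at 37.9, 5.27 and 11.1 CPM, and those of GBP4, an interferon-inducible guanylate-binding protein, at 17.2, 3.03 and 6.68. Even the lowest of these parental values lay above all 6 knockout values, which reached 3.16 CPM for PKNOX2 and 0.966 for GBP4. Genes expressed at 5 CPM or more in the parental mean and under 0.5 in both knockout means included CCL26, ZFR2, SOD3, GPR158, CALB2, GAGE1 and ENSG00000230392. CCL26, the chemokine eotaxin-3, for example fell from 7.95, 3.94 and 3.58 CPM to at most 0.512 in any knockout library. No gene met the reverse condition. In the plot of levels by library, the risen and the fallen genes are seen side by side.

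**Figure D2:**
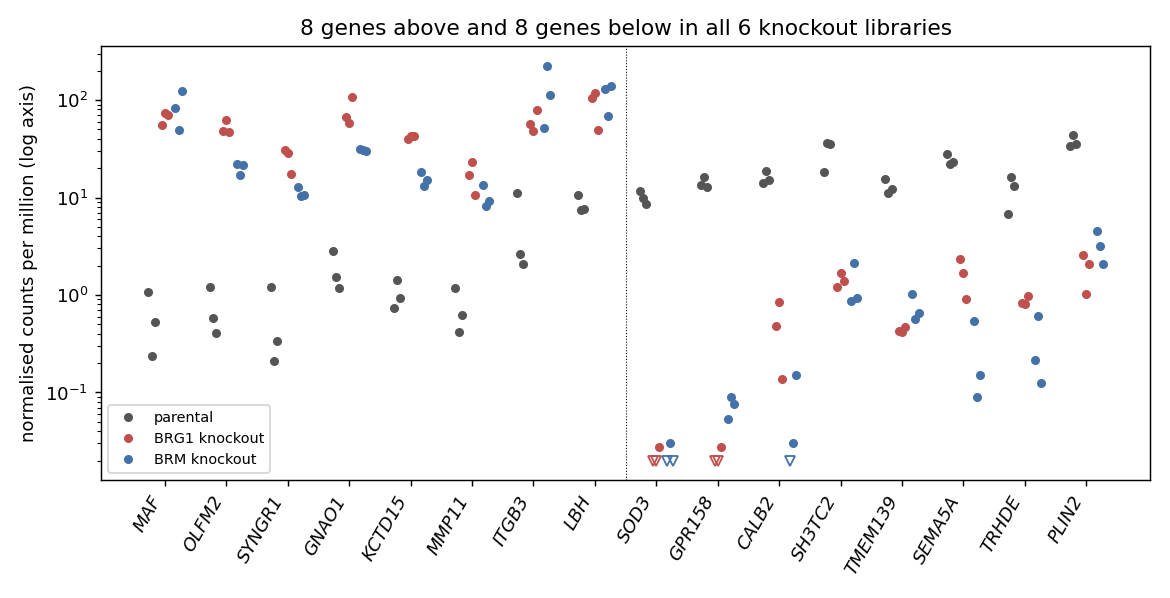
TMM-scaled level in CPM (log axis) of 8 genes above and 8 below, 1 point per library, for parental (grey), BRG1 knockout (red) and BRM knockout (blue). Open triangles mark libraries with 0 reads, drawn at the bottom because a log axis has no 0. For each gene the 6 knockout points lie on one side of the 3 parental points.

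Among non-coding genes, LINC00294 rose from 5.40, 2.27 and 2.36 CPM to 15.5, 12.05 and 18.01 in the BRG1 knockout and to 11.7, 13.6 and 15.99 in the BRM knockout. LINC01239 rose from 4.12, 2.14 and 2.31 to 13.6, 12.5 and 12.3 and to 7.88, 7.17 and 10.5. The host gene SNHG18 fell from 10.8, 8.85 and 8.85 to 1.19, 0.973 and 0.249, and to 1 read in all over the BRM knockout libraries. Its fall was the larger in the BRM knockout (difference 6.02 ± 0.88, adjusted p = 0.00028). ENSG00000093100 was called with an adjusted p of 0.030, which several alternatives ended, and its BRG1 knockout level rested on replicates 1 and 2 (22.2 and 26.6 CPM against 2.49). Without both of them its change was 1.74 (adjusted p = 0.19).

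Genes of cell division fell together in both knockouts. Of 51 tested members of that list, 50 were lower and none was higher, and 36 lay below in all 6 libraries (70.6%, against 11.2% of all genes). The median change was -1.96, with -1.04 in the BRG1 knockout and -2.86 in the BRM knockout. RRM2, the ribonucleotide reductase subunit that makes DNA precursors, fell from 126, 251 and 232 CPM to 37.8, 61.7 and 74.8 and to 37.7, 36.6 and 10.2. TOP2A, the topoisomerase that untangles chromosomes, fell from 695, 832 and 798 to 190, 199 and 412 and to 65.1, 234 and 63.5. CCNE2, a cyclin of S phase entry, fell from 14.3, 24.7 and 31.9 to 4.72, 7.63 and 9.43 and to 6.03, 1.51 and 1.62. BRG1 knockout replicate 3 was the highest knockout library in each of these genes, and it stayed under the parental range. In MKI67, the proliferation marker Ki-67, that library reached 236 CPM, within the parental range of 221 to 392, so MKI67 was called (-2.53 ± 0.46, adjusted p = 0.0025) and was no member.

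Of the regulators on the list, FOXM1, which drives the genes of G2 and mitosis, fell from 116, 176 and 171 CPM to 37.3, 57.4 and 75.6 and to 7.86, 21.7 and 7.69, further in the BRM knockout (difference 2.20 ± 0.42, adjusted p = 0.0021). CENPE, a kinetochore motor, was called (-2.52 ± 0.56, adjusted p = 0.0065) and lost its call without BRG1 knockout replicates 1 and 2 (-2.14, adjusted p = 0.057). Leaving out both of those libraries left 36 of the 51 genes lower, and treating the 6 knockout libraries as 1 group, which counts the difference between the knockouts as noise, left 7.

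The TOP2A promoter is printed because it holds both elements known from genes of this class, the cell cycle homology region (searched as TTTGAA) and the CCAAT box (searched as CCAAT), on either strand and without overlap between them. Both were searched after the data had been seen. The 250-base window is chr17:40417897-40418146 on the minus strand, and capitals mark the matches, of which the TTTGAA matches begin 194 and 151 bases before the start.
TOP2A: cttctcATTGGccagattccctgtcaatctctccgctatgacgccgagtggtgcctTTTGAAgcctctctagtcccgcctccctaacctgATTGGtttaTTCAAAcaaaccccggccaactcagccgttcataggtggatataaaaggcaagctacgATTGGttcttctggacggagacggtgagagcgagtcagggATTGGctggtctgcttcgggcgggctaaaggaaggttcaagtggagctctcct
TTTGAA was found in 11 of 41 cell division genes with a RefSeq promoter (26.8%), in 12.7% of all members below, in 6.72% of members above and in 8.88% of all tested genes. CCAAT was found in 68.3% of the cell division genes and in 34.5% of all tested genes. A match is a run of letters and no measured site.

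Genes of the integrated stress response, the programme by which ATF4 restores amino acid supply when translation is curbed, rose more often than they fell. Of 34 tested, 19 were higher and 1 was lower, and 14 lay above in all 6 libraries (41.2%, against 12.7% of all genes). The median changes were 0.57 in the BRG1 knockout and 0.70 in the BRM knockout, and treating the 6 knockout libraries as 1 group left 11 genes higher. ATF4 itself rose from 265, 268 and 260 CPM to 454, 494 and 363 and to 391, 430 and 396. CHAC1, which degrades glutathione and is a classical ATF4 target, rose from 4.30, 5.71 and 6.63 to 32.7, 26.0 and 40.2 and to 15.8, 27.1 and 17.2. ASNS, asparagine synthetase, rose from 37.8, 36.8 and 42.0 to 94.3, 102 and 147 and to 69.0, 165 and 83.6. These 3 genes showed no overlap with the parental range, and the difference between the knockouts was called for CHAC1 alone among them (0.72 ± 0.25, adjusted p = 0.038).

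HERPUD1, which serves the degradation of misfolded proteins of the endoplasmic reticulum, rose from 50.1, 36.3 and 36.2 CPM to 118, 110 and 142 and to 132, 171 and 144. The amino acid transporter genes SLC7A5 and SLC3A2 rose by 0.83 and 0.79 on the log2 scale. DDIT4, an inhibitor of mTORC1, rose further in the BRG1 knockout (2.31 ± 0.21 against 0.87 ± 0.20), and ATF3 further in the BRM knockout (2.10 ± 0.30 against 1.17 ± 0.30). NUPR1 was called (4.03 ± 0.74, adjusted p = 0.0018) with overlapping ranges, since its rise was a BRG1 knockout change, from at most 0.0614 CPM to 2.96, 2.87 and 1.91. The one gene called lower was ATF5 (-0.63). The composite C/EBP-ATF element, searched as TGATGNAA on either strand after the data had been seen, occurred in 4 of 29 promoters of this list (13.8%) and in 1.44% of those of all tested genes. CHAC1 holds one, 209 bases before its start in the window chr15:40953221-40953470 on the plus strand, and the capitals mark it as its reverse complement.
CHAC1: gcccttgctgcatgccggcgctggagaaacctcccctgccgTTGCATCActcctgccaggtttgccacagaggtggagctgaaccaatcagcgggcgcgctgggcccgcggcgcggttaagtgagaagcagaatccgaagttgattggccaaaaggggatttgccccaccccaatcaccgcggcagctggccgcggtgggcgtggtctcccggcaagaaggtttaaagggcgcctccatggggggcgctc

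Genes of autophagy and the lysosome formed another group that rose. Of 34 tested, 20 were higher (58.8%, against 19.5% of all genes) and 2 lower (5.88%, against 19.6%). In all 6 libraries 12 lay above (35.3%, against 12.7% of all genes). The median change was 0.77 in the BRG1 knockout and 0.20 in the BRM knockout. The count of higher genes was 9 with the 6 knockout libraries as 1 group and 13 without either parental replicate 2 or 3. TFEB, the transcription factor that switches on lysosomal genes, rose from 4.39, 1.85 and 2.19 CPM to 13.1, 20.8 and 20.3 and to 5.77, 10.3 and 8.15. Its relative TFE3 rose from 64.1, 53.5 and 52.8 to 111, 96.1 and 105 and to 66.3, 77.9 and 73.6. In both genes the BRM knockout came closest to parental replicate 1, and the difference between the knockouts was called (1.16 ± 0.34 and 0.51 ± 0.14, adjusted p = 0.017 and 0.011).

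Genes of the ubiquitin-like proteins that coat autophagosomes rose as well. GABARAPL1 rose from 12.1, 4.54 and 5.56 CPM to 47.1, 36.4 and 37.2 and to 28.3, 35.0 and 33.3. MAP1LC3B, the gene of LC3B, rose from 56.9, 56.3 and 53.5 to 181, 185 and 221 and to 131, 187 and 140. PSAP, the precursor of the saposins that help degrade sphingolipids, rose from 581.2, 337.1 and 313.9 to 1135.7, 983.3 and 798.4 and to 1808.5, 1310.1 and 1745.1. ULK1, the kinase that starts autophagy, rose by 1.14 ± 0.19, WIPI1 by 1.502 ± 0.31 and the sialidase gene NEU1 by 0.87 ± 0.20. ATG16L1, which guides lipidation of LC3, went the other way, from 72.7, 87.3 and 87.6 to 37.4, 41.1 and 39.7 and to 49.3, 53.7 and 48.8. The E-box CACGTG, the core of the element that TFEB binds, was found in 6 of 26 promoters of this list (23.1%), in 1 of the 9 promoters of its members above, and in 8.61% of all tested genes.

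Ribosomal protein genes rose unevenly. Of 57 tested, 31 were higher (54.4%, against 19.5% of all genes) and none lower. In all 6 libraries 26 lay above (45.6%, against 12.7% of all genes). The median change was 0.85 in the BRG1 knockout and 0.28 in the BRM knockout. RPL31 rose from 438, 272 and 339 CPM to 921, 950 and 484 and to 727, 672 and 723. RPL9 rose from 732.5, 543.6 and 653.7 to 1677.4, 1855.7 and 933.3 and to 1218.5, 1288.6 and 1295.3. In both genes BRG1 knockout replicate 3 was the lowest knockout library and lay above the parental range, while replicates 1 and 2, which also held the high ribosomal protein shares, lay far above it. Without those 2 libraries 21 genes were higher and 4 lower, with a median of 0.22. The count of higher genes was 12 without parental replicate 2 and 12 without parental replicate 3, 18 without BRG1 knockout replicate 1 and 19 without BRM knockout replicate 1, and it was 8 with the 6 knockout libraries as 1 group. Ribosomal protein genes have many near-identical pseudogenes, so the split of their reads is uncertain.

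Of 15 tested mitochondrial transcripts, 4 lay below (26.7%, against 11.2% of all genes) and 1 above (6.67%, against 12.7%). The one above was MT-RNR2, the large mitochondrial rRNA, which rose from 1815.4, 1162.2 and 1166.2 CPM to 4285.7, 3234.1 and 3645.0 and to 3993.7, 6228.6 and 5005.3, and which is part of the rRNA share of the libraries given above. MT-ND2 and MT-ND4, subunits of complex I, were called with changes of -0.42 and -0.36 (adjusted p = 0.041 and 0.047), calls that were lost in several alternatives, for example without parental replicate 1 (adjusted p = 0.096 and 0.18). Of nuclear oxidative phosphorylation genes, COX8A, a subunit of cytochrome oxidase, fell from 211, 204 and 204 to 103, 148 and 89.7 and to 97.7, 124 and 96.8, and COX6A1 fell by 0.58 ± 0.14. In that list of 40, 3 genes lay above (7.5%, against 12.7% of all genes), COX4I1 among them with a rise of 0.65, 4 lay below (10.0%, against 11.2%), and 32 were not called.

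**Figure D3:**
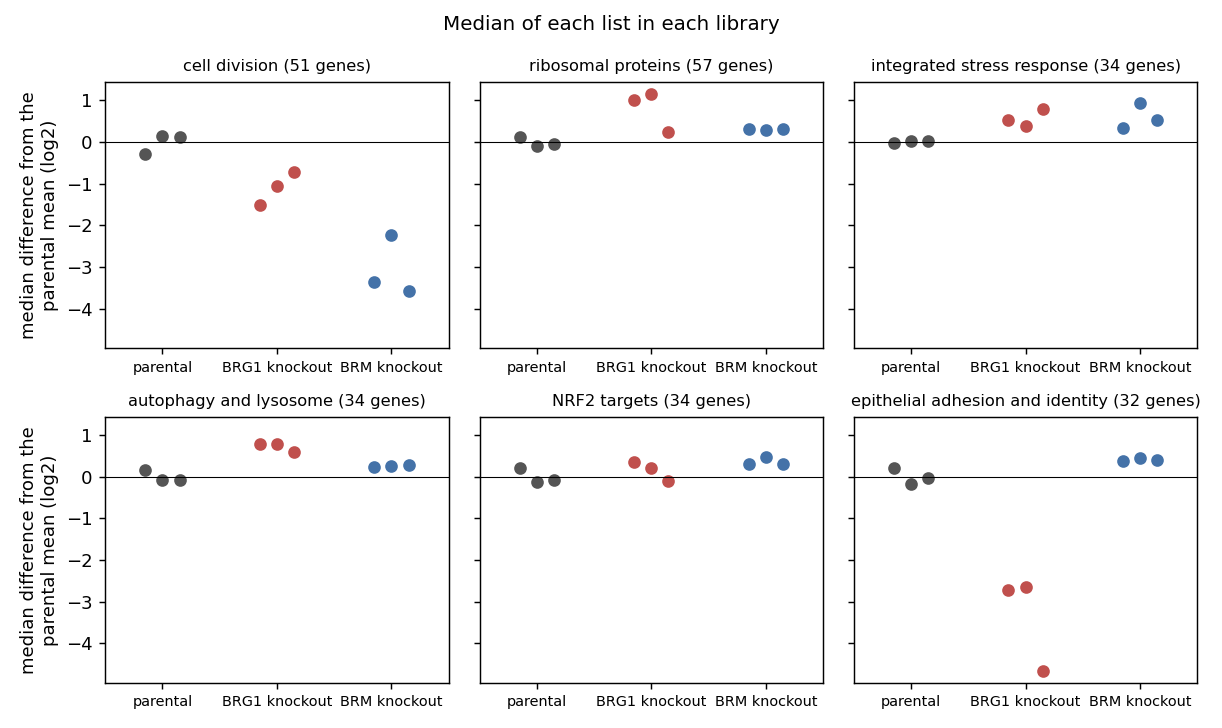
Median over the tested genes of a list of the difference between each library and the parental mean (log2), 1 point per library, for 6 gene lists. Cell division lies below 0 in all 6 knockout libraries, the integrated stress response and autophagy and lysosome lie above, and epithelial genes are low in the BRG1 knockout alone.

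Of 14 tested members of the BCL2 family of cell death regulators, 5 were higher and 2 lower, and 3 lay above (21.4%, against 12.7% of all genes) and none below. The 3 are pro-apoptotic, and the median of the list was 0.05, with a sign that changed under several alternatives, for example -0.13 after correction for GC content and length. BMF, a BH3-only protein released from the cytoskeleton, rose from 7.98, 4.67 and 6.63 CPM to 84.5, 71.5 and 74.1 in the BRG1 knockout and to 47.9, 48.0 and 55.3 in the BRM knockout. BBC3, the gene of PUMA, rose from 8.02, 2.71 and 3.96 to 30.3, 25.6 and 14.5 and to 29.1, 29.4 and 32.7. BOK, a BAX-like effector, rose from 20.8, 13.05 and 14.3 to 34.1, 55.6 and 44.0 and to 89.2, 71.4 and 84.0. BMF rose further in the BRG1 knockout (difference 0.61 ± 0.19, adjusted p = 0.021) and BOK further in the BRM knockout (-0.87 ± 0.22, adjusted p = 0.0080). BIK, another BH3-only gene, was called lower (-2.16) with overlapping ranges.

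Of 20 tested p53 targets, 10 were higher (50%, against 19.5% of all genes) and 4 lower (20%, against 19.6%). Of these 20, 4 lay above (20%, against 12.7%) and 2 below (10%, against 11.2%). Medians were 0.10 in the BRG1 knockout and 0.68 in the BRM knockout. With the 6 knockout libraries as 1 group, 3 were higher and 1 lower, and without parental replicate 2 or 3 the lower genes numbered 2. TP53INP1, which promotes autophagy and cell death under stress, rose from 4.36, 2.43 and 2.03 CPM to 24.9, 18.6 and 28.0 and to 38.4, 30.7 and 36.7. ZMAT3, an RNA-binding p53 target, rose by 0.88 ± 0.21 (adjusted p = 0.0079), a call that ended without parental replicate 3 (0.74, adjusted p = 0.051). CDKN1A, the gene of the cell cycle inhibitor p21, was called higher (1.35) with overlapping ranges. DDB2, a DNA damage sensor, fell from 12.2, 16.9 and 19.1 to 7.25, 7.52 and 7.17 and to 6.76, 7.44 and 6.15. AEN fell as well, so that targets of p53 moved both ways, with falls near the shares of all genes. H358 is known to lack p53.

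NRF2, encoded by NFE2L2, is the transcription factor of the oxidative stress response, and KEAP1 is the adaptor that sends it for degradation. NFE2L2 was 85.9, 100 and 89.6 CPM in parental cells, 122, 108 and 129 in the BRG1 knockout and 111, 104 and 109 in the BRM knockout. All 6 knockout libraries lay above the parental range by a small step, and the joint change of 0.31 ± 0.11 was not called (adjusted p = 0.054), while after correction for GC content and length it was (0.33, adjusted p = 0.011). KEAP1 moved in opposite directions, from 59.2, 54.0 and 59.1 to 80.9, 88.9 and 78.4 in the BRG1 knockout and to 39.6, 35.6 and 37.6 in the BRM knockout, with a difference of 1.14 ± 0.13 (adjusted p = 4.6e-05). Among 14 NRF2 regulators, BACH2 (1.04 ± 0.27), a repressor at NRF2 sites, and BTRC (0.67 ± 0.17), a ubiquitin ligase adaptor for NRF2, lay above, and CUL3 (-0.30 ± 0.11), the scaffold of the KEAP1 ligase, lay below.

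Of 34 tested NRF2 targets, 9 were higher (26.5%, against 19.5% of all genes) and 5 lower (14.7%, against 19.6%). Of these 34, 7 lay above (20.6%, against 12.7%) and 1 lay below (2.94%, against 11.2%). The count of higher genes was 5 without either parental replicate 2 or 3, and 4 with the 6 knockout libraries as 1 group. HMOX1, heme oxygenase 1, rose from 13.9, 10.8 and 8.68 CPM to 48.8, 55.2 and 21.5 and to 23.4, 32.9 and 22.2. ABCC3, an export pump for conjugates, rose from 25.9, 12.9 and 19.1 to 39.0, 36.7 and 45.8 and further in the BRM knockout, to 66.1, 72.3 and 74.6. NQO1, the quinone reductase, rose from 361, 334 and 359 to 711, 607 and 764 and to 512, 562 and 481. The knockouts differed for ABCC3 (-0.81 ± 0.22, adjusted p = 0.012) and NQO1 (0.42 ± 0.14, adjusted p = 0.033).

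FTL, the ferritin light chain, rose from 736.3, 673.4 and 616.6 CPM to 3204.9, 2992.0 and 1789.2 and to 945.6, 1237.5 and 832.0, a rise that was called in the BRG1 knockout (1.98 ± 0.24, adjusted p = 9.8e-05) and missed the threshold in the BRM knockout (0.57 ± 0.23, adjusted p = 0.073). TXNRD1, thioredoxin reductase, was the member below, at 752, 583 and 667 CPM in parental cells, 460, 246 and 289 in the BRG1 knockout and 296, 419 and 307 in the BRM knockout. GCLM, a subunit of the enzyme for glutathione synthesis, was called lower (-0.88) on its BRG1 knockout value alone, at 14.7, 18.5 and 15.7 against 49.0, 54.6 and 52.6 in parental cells and 37.7, 66.0 and 44.1 in the BRM knockout. The core of the NRF2 element, searched as TGACNNNGC, was in 11.98% of promoters of all members above, 11.7% of those below and 12.1% of all tested genes, and it can overlap the AP-1 motif. Within the NRF2 target list it was found in 6 of 23 promoters (26.1%), and in 0 of the 4 promoters of its members above.

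Within SWI/SNF itself, 3 of 28 tested subunit genes lay above and 3 below (10.7% each), close to the shares of all genes. SMARCD3, the BAF60C subunit known from heart and muscle, rose from 1.47, 0.391 and 0.549 CPM to 16.5, 16.3 and 12.6 and to 9.12, 6.96 and 6.28 (3.74 ± 0.40, adjusted p = 0.00011). Its paralogue SMARCD2 fell from 182, 171 and 179 to 103, 111 and 85.4 and, less far, to 163, 159 and 159. SMARCD1 lay below by a small margin and was not called (-0.26 ± 0.12, adjusted p = 0.10). Of these 3 paralogues, SMARCD3 lay above and the others below.

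ACTL6A, the actin-related subunit BAF53A, fell from 81.9, 101 and 99.6 CPM to 50.7, 64.0 and 64.3 and to 50.4, 47.3 and 44.8. BICRA, a subunit of the non-canonical complex, rose by 0.49 ± 0.12 (adjusted p = 0.0089), and SS18L1 by 0.52 ± 0.13 (adjusted p = 0.010). Both calls depended on the processing, with 0.02 for BICRA (adjusted p = 0.88) after correction for GC content and length and 0.25 for SS18L1 (adjusted p = 0.20) after correction for length. Of 20 other chromatin remodellers, CHD7 fell from 96.5, 92.8 and 88.3 to 32.7, 30.8 and 46.5 in the BRG1 knockout and to 69.2, 79.9 and 76.6 in the BRM knockout, a difference of -1.04 ± 0.17 (adjusted p = 0.00057). Its change in the BRM knockout alone was not called (-0.30 ± 0.17, adjusted p = 0.18). CHD4, the ATPase of NuRD, and EP400 fell by 0.50 ± 0.13 and 0.61 ± 0.19, calls that ended without parental replicate 3 (adjusted p = 0.058 and 0.067). The EP400 call also ended without parental replicate 1 or 2 (adjusted p = 0.052 and 0.12) and without BRM knockout replicate 3 (adjusted p = 0.064). EP400 had no call in the BRM knockout alone (-0.39 ± 0.23, adjusted p = 0.20). After correction for length, the change of CHD4 was -0.22 (adjusted p = 0.34).

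Polycomb complexes, which deposit repressive histone marks and oppose SWI/SNF at many genes, had 6 of 28 tested members below (21.4%, against 11.2% of all genes) and 2 above (7.14%, against 12.7%). EZH2, the H3K27 methyltransferase, fell from 39.2, 58.9 and 55.6 CPM to 16.3, 22.2 and 23.5 and to 12.9, 14.8 and 13.1. EED, its partner that reads the mark, fell from 32.0, 33.9 and 35.4 to 16.5, 23.2 and 20.3 and to 14.2, 13.6 and 15.2. PHF19, an accessory subunit, fell from 127, 130 and 133 to 52.7, 66.8 and 84.3 and to 28.2, 57.7 and 28.8. In each of the 3, the fall was the larger in the BRM knockout, with differences of 0.61 ± 0.20, 0.48 ± 0.16 and 0.83 ± 0.27 (adjusted p = 0.027, 0.030 and 0.028), as it was for the cell division genes. KDM2B, JARID2 and RBBP7 were the other members below. PCGF3, of the variant complex PRC1, rose by 0.98 ± 0.14. The median over the list was -0.06 and turned to 0.09 without parental replicate 1.

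Among AP-1 and immediate early genes, 10 of 21 were higher (47.6%, against 19.5% of all genes) and 4 lower (19.0%, against 19.6%). Of these 21, 6 lay above (28.6%, against 12.7%) and 2 below (9.52%, against 11.2%). Without parental replicate 2 the higher genes numbered 5, and without parental replicate 3 they numbered 3. FOS, a partner in the classical AP-1 dimer, rose from 4.24, 4.10 and 5.25 CPM to 80.9, 9.44 and 7.94 and to 62.4, 16.5 and 22.2. The replicates numbered 1 were the highest in both knockouts, and the call (2.87 ± 0.84, adjusted p = 0.024) ended without BRM knockout replicate 1 (2.38, adjusted p = 0.055) and without each of the 3 parental libraries in turn (adjusted p = 0.075, 0.096 and 0.082). FOSB and EGR1 rose by 3.39 ± 0.82 and 1.88 ± 0.49, calls that ended without parental replicate 3 (adjusted p = 0.052 and 0.064).

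The fall of FOSL1, the AP-1 member that accumulates under RAS and ERK signalling, was steadier, from 185, 273 and 195 CPM to 45.2, 87.4 and 50.9 and to 37.9, 54.0 and 46.9. BATF, an AP-1 factor of lymphocytes, was at 1.41, 1.02 and 1.24 in parental cells and at most 0.0536 in any knockout library. Of the other genes controlled by ERK, PHLDA1 fell from 772, 655 and 650 to 438, 355 and 315 and to 410, 391 and 412. ETV4 fell mainly in the BRG1 knockout, from 50.5, 47.6 and 49.3 to 10.0, 15.4 and 9.16, against 32.7, 42.0 and 38.7 in the BRM knockout (difference -1.71 ± 0.20, adjusted p = 7.4e-05). The BRM knockout change of ETV4 alone was not called (-0.38 ± 0.20, adjusted p = 0.15). The MAPK output list had 3 of 25 genes higher (12%, against 19.5% of all genes) and 9 lower (36%, against 19.6%). In it 2 lay above (8%, against 12.7%) and 4 below (16%, against 11.2%). Its median was -0.70 in the BRG1 knockout and -0.07 in the BRM knockout, and 18 of the 25 differed between them. The AP-1 motif, searched as TGANTCA, was in 4.03% of promoters of members above, 3.75% of those below and 4.35% of all tested genes.

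Of 15 receptors and ligands of the ErbB family, 7 were lower and 3 higher, and 4 lay below (26.7%, against 11.2% of all genes) and 2 above (13.3%, against 12.7%). EGFR fell from 113, 163 and 139 CPM to 41.3, 30.8 and 76.9 and to 81.0, 98.2 and 101. In the BRM knockout alone the fall of EGFR was not called (-0.57 ± 0.29, adjusted p = 0.15). Its ligand betacellulin, BTC, fell from 9.24, 8.74 and 9.23 to 1.22, 0.816 and 0.221 and to 3.86, 3.97 and 4.23. Epiregulin, EREG, fell from 188, 147 and 158 to 9.97, 5.66 and 1.36, while the BRM knockout, at 135, 141 and 112, lay just below the parental range without a call of its own (-0.34 ± 0.48, adjusted p = 0.60). All 3 fell further in the BRG1 knockout, with differences of -0.91 ± 0.29 for EGFR, -2.41 ± 0.43 for BTC and -4.52 ± 0.56 for EREG (adjusted p = 0.026, 0.0011 and 0.00015). NRG4 was the other member below, at under 0.5 CPM in all libraries. ERBB4, a further receptor of the family, rose from 0.645, 0.209 and 0.358 to 2.10, 1.05 and 1.66 and to 3.97, 4.16 and 1.87.

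Of 30 tested YAP and TEAD targets, 12 were higher (40%, against 19.5% of all genes) and 4 lower (13.3%, against 19.6%). Of these 30, 4 lay above (13.3%, against 12.7%), close to the share of all genes, and 2 below (6.67%, against 11.2%). Medians went opposite ways, 0.99 in the BRG1 knockout and -0.20 in the BRM knockout. Without BRG1 knockout replicate 3, 12 were higher and 10 lower. RBMS3, an RNA-binding protein, rose from 7.83, 3.39 and 2.93 CPM to 30.01, 27.7 and 47.6 and to 19.0, 19.4 and 28.7. The kinase gene NUAK2 rose by 1.47 ± 0.27 and AJUBA, an adaptor of the Hippo pathway, by 0.81 ± 0.17. The TEAD motif, searched as GGAATG, was in 8.50% of promoters above, 11.1% of those below and 9.54% of all tested genes.

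Matrix and adhesion genes moved in both directions. Of 42 collagen and matrix genes, 13 were higher and 6 lower, and without BRG1 knockout replicate 3 the lower genes numbered 13. Of the 42, 6 lay above (14.3%, against 12.7% of all genes) and 2 below (4.76%, against 11.2%). FBN1, the microfibril protein fibrillin-1, rose from 58.9, 42.4 and 38.6 CPM to 249, 166 and 392 and to 221, 233 and 210. COL1A1, the alpha1 chain of type I collagen, rose from 38.6, 23.7 and 23.2 to 249, 283 and 208 and to 112, 73.5 and 89.2. MATN2, a matrix adaptor protein, rose from 4.42, 1.46 and 2.19 to 59.4, 99.6 and 83.8 in the BRG1 knockout and to 7.11, 5.69 and 7.90 in the BRM knockout. The BRG1 knockout rise was the larger for COL1A1 (difference 1.43 ± 0.23, adjusted p = 0.00058) and MATN2 (3.55 ± 0.36, adjusted p = 2.9e-05), and not distinguished for FBN1 (0.28 ± 0.27, adjusted p = 0.42). The summed level of 8 fibroblast markers, a list that also holds matrix genes, was 36.0 to 68.9 CPM in parental, 400 to 1039 in BRG1 knockout and 85.1 to 129 in BRM knockout libraries, and its part in these values was not tested.

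Of 18 integrin genes, 4 lay above (22.2%, against 12.7% of all genes) and 3 below (16.7%, against 11.2%), and ITGB3 was described above. ITGA6, the laminin receptor chain of epithelia, fell from 366, 599 and 500 CPM to 59.1, 60.01 and 120 and to 145, 255 and 200. ITGB2 and ITGB7, chains otherwise known from leukocytes, fell by 2.11 ± 0.25 and 2.51 ± 0.44. Guidance genes, the semaphorins, ephrins and their receptors, had 9 of 56 above (16.1%, against 12.7% of all genes) and 6 below (10.7%, against 11.2%), near the shares of all genes. EFNB2, a membrane ligand of Eph receptors, fell from 87.2, 181 and 155 to 16.03, 24.6 and 24.8 and to 36.8, 34.7 and 30.8. EFNB3 rose from 13.5, 5.79 and 7.01 to 41.3, 40.3 and 31.6 and to 35.9, 25.7 and 34.5. SEMA6C and SEMA4G rose by 2.54 ± 0.24 and 1.85 ± 0.29, and EPHB1 fell by 2.36 ± 0.28. The median over these 56 genes, 0.13, took no stable sign, with -0.10 after correction for GC content and length.

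Of 19 tested genes of MHC class I presentation, 7 were lower and 3 higher, and 5 lay below (26.3%, against 11.2% of all genes) and 2 above (10.5%, against 12.7%). The median change was -0.02, and B2M and PDIA3 were the members above, so genes of this list moved both ways. The summed level of the list was 3616 to 4511 CPM in parental, 5008 to 6646 in BRG1 knockout and 4157 to 4782 in BRM knockout libraries. PSMB9, a subunit of the immunoproteasome, fell from 32.6, 18.3 and 25.2 CPM to 7.70, 3.79 and 3.32 and to 6.25, 10.5 and 9.97. TAP2, a chain of the peptide transporter, fell from 78.6, 105 and 108 to 38.6, 41.0 and 46.3 and to 30.5, 38.8 and 34.0. ERAP2, a peptide-trimming protease, fell from 8.91, 11.8 and 11.9 to 5.48, 4.47 and 4.40 and to 5.44, 5.78 and 5.87. The knockouts overlapped each other in all 3 genes, and no difference between them was called, at -0.85 ± 0.35, 0.29 ± 0.16 and -0.25 ± 0.21 (adjusted p = 0.067, 0.18 and 0.34).

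Of 45 interferon-stimulated genes, 17 were lower (37.8%, against 19.6% of all genes) and 9 higher (20%, against 19.5%). Only 6 lay below (13.3%, against 11.2%) and 2 above (4.44%, against 12.7%), near or under the shares of all genes. The list moved opposite ways, with medians of -1.44 in the BRG1 knockout and 0.49 in the BRM knockout, and 34 of the 45 differed between them. XAF1, an apoptosis-promoting interferon target, fell from 3.01, 1.90 and 1.14 CPM to at most 0.237 in the BRG1 knockout and 0.633 in the BRM knockout. CMPK2, a mitochondrial nucleotide kinase, fell to 0.142, 0.0789 and 0.138 in the BRG1 knockout from 4.51, 3.84 and 5.604, with 3.30, 0.873 and 3.29 in the BRM knockout (difference -4.35 ± 0.57, adjusted p = 0.00014). The BRM knockout change of CMPK2 alone was not called (-0.90 ± 0.44, adjusted p = 0.13). Of 23 genes of NF-kB and inflammation, 6 were lower and 3 higher, and 4 lay below (17.4%, against 11.2% of all genes) and 2 above (8.70%, against 12.7%), with a median change of 0.19. BIRC3, a ubiquitin ligase induced by NF-kB, fell from 12.3, 9.21 and 9.32 to 1.53, 1.47 and 1.19 and to 3.41, 3.07 and 2.58, and NFKB1, the gene of p105 and p50, from 77.5, 83.6 and 77.0 to 34.2, 33.7 and 36.7 and to 47.5, 42.3 and 49.0. Of 29 cholesterol and fatty acid genes, 3 lay below (10.3%, near the share of all genes), none lay above and 22 were not called. The 3 were ELOVL6, FADS1 and FADS2, which lengthen and desaturate fatty acids. ELOVL6 fell by 1.00 ± 0.15 and FADS2 fell by 0.91 ± 0.18, while without parental replicate 1 FADS2 fell by 0.58. FADS1 (-0.61 ± 0.20, adjusted p = 0.037) was not called without that library (adjusted p = 0.11).

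**Figure D4:**
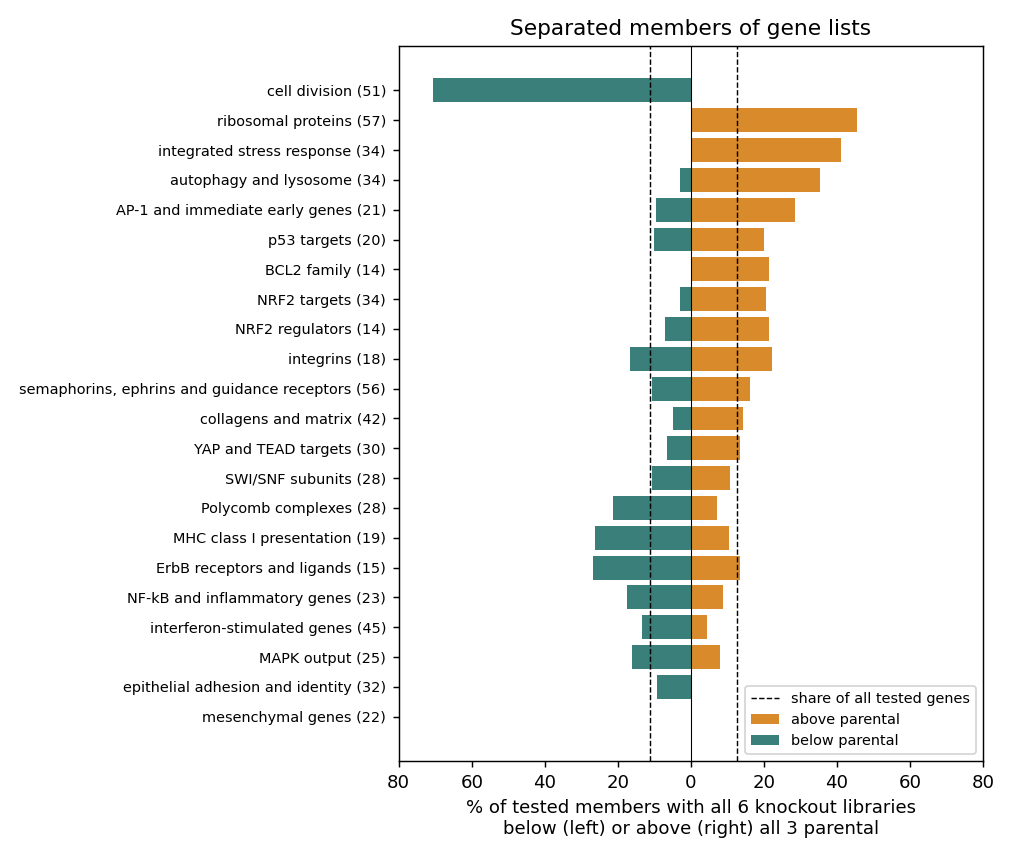
Share of the tested members of 22 gene lists (number tested in parentheses) with all 6 knockout libraries below (green, to the left) or above (orange, to the right) the parental libraries, in percent. Dashed lines mark 11.2% and 12.7%, the shares of all tested genes, and cell division reaches 70.6% below.

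Epithelial identity genes were often called lower in the joint comparison without being shared. Of 32 epithelial adhesion and identity genes, 14 were lower (43.8%, against 19.6% of all genes), yet only 3 lay below (9.38%, against 11.2%). The medians were -3.50 in the BRG1 knockout and 0.37 in the BRM knockout. Without BRG1 knockout replicate 3, 25 were lower. The 3 that lay below were EHF, KRT8 and KRT18, and each differed between the knockouts. KRT8 was 1857.5, 1896.3 and 1966.2 CPM in parental cells, 361.2, 551.4 and 259.6 in the BRG1 knockout and 1712.1, 1236.1 and 1515.8 in the BRM knockout, which had no call of its own (-0.36 ± 0.24, adjusted p = 0.27). EHF, an epithelial ETS factor, was 24.1, 16.8 and 16.2, then at most 0.171, then 9.57, 8.16 and 9.72, and its fall in the BRM knockout was called (-1.06 ± 0.33, adjusted p = 0.027). Of 22 mesenchymal genes, 5 were higher (22.7%, against 19.5% of all genes) and 1 lower (4.55%, against 19.6%), and none lay above or below. A joint call, and membership too, can thus hold for a gene whose BRM knockout change alone was not called, as for KRT8.

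Members differed from all tested genes in their make-up. The median GC content of transcripts was 53.4% for members above, 47.4% for those below and 49.8% for all tested, and protein-coding genes made up 84.0%, 84.5% and 79.0%. After a correction for GC content and length, the members numbered 2106 above and 2691 below, of which 1799 and 1886 were members in the uncorrected ordering too. Chromosomes were unequally represented. Among the chromosomes of the nucleus, chromosome 12 had the highest share of members below, 194 of 929 tested genes (20.9%), and 7.21% above. Chromosome 15 had the highest share above, 112 of 605 (18.5%), and 7.11% below. 

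**Figure D5:**
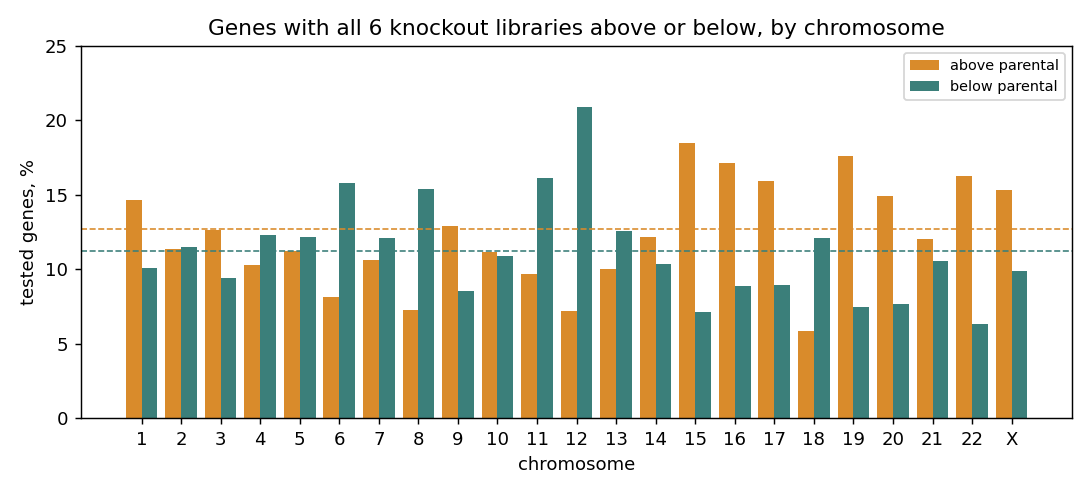
Share of tested genes on each chromosome, in percent, with all 6 knockout libraries above (orange) or below (green) all 3 parental libraries. Dashed lines mark 12.7% and 11.2%, the shares over all tested genes, and chromosome 12 stands out with 20.9% below.

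In windows of 10 Mb with at least 20 tested genes, of which there were 275, the end of chromosome 16 held the densest run of members above. Between 80 and 90 Mb, 43 of 114 genes lay above (37.7%) and 2 below, with median changes of 0.56 in the BRG1 knockout and 0.75 in the BRM knockout. Between 70 and 80 Mb, where MAF lies, 28 of 78 lay above (35.9%). The autophagy gene MAP1LC3B and the cadherin gene CDH15, which rose from at most 0.491 CPM to 3.35, 3.71 and 2.99 and to 2.23, 2.08 and 3.16, lie on this arm as well, and so does CALB2, which fell. On chromosome 17, 34 of 108 genes between 10 and 20 Mb lay above (31.5%). The highest share below was that of 1 window on chromosome 8, with 18 of 34 genes (52.9%) and none above. It was followed by chromosome 12 between 30 and 40 Mb, with 14 of 32 (43.8%) and none above, and median changes of -1.06 and -0.87. PKP2, a desmosomal plakophilin that lies there, fell from 66.1, 84.4 and 83.8 CPM to 8.07, 5.45 and 7.498 and to 10.97, 13.8 and 10.9. These windows were picked for their shares out of 275, and DNA copy number was not measured in these libraries.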

How the data were processed

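Each deposited file holds 1 library's estimated counts per transcript, unnormalized, and TPM values, both made by the authors with Salmon, per the file headers. The submitters' processing notes also name DESeq2 and hg38. Versions and settings were not given in the sources used here. Counts were summed over genes of GENCODE release 29 for 58237 genes, rounded, and tested with edgeR 4.0.16 (filterByExpr, TMM, robust glmQLFit, 1 mean per group, all 9 libraries, 6 residual degrees of freedom, two-sided, Benjamini-Hochberg). The joint contrast gave each knockout group equal weight. The standard error is the absolute log2 change over the square root of F. The ordering of libraries used TMM-scaled CPM. On simulated counts with this contrast, over 17380 genes, changes of 2 on the log2 scale were recovered in 100% of cases, rises of 1 in 60% and falls of 1 in 54%.

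The members and gene lists were chosen with earlier results of these data known. Genes named were SMARCA4, SMARCA2, NFE2L2 and KEAP1, then called members with at least 3 log2 CPM in one arm, ranked by the smaller of both changes (12 protein-coding and 3 other genes each way), then 3 per list and direction where at least 3 qualified. Further genes were chosen after their values were seen. A few of the genes so selected are left out of the text. Promoters are RefSeq entries of GRCh38.p14. TPM, DESeq2 1.42.0 and limma 3.58.1 served as alternatives. Replicate numbers are not stated to pair libraries, so the main fit held no block. Correlations of same-numbered libraries lay between -0.137 and 0.291, and those of differently numbered ones between -0.29 and 0.195. These overlapping ranges do not settle whether the numbers pair libraries.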

Additional observations from a re-analysis of the deposited data

Results flagged for a closer look

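Of the 104 genes named by the rule, 44 changed by unequal amounts in the knockouts, by a direct edgeR test of BRG1 knockout against BRM knockout (adjusted p under the threshold, over all genes tested). The same test was called for 45.3% of all genes tested, for 29.1% of members above and for 36.0% of members below. All named genes but SMARCA4, SMARCA2 and KEAP1 are members, so the shares of members are the closer comparison. The 44 include SMARCA4 and SMARCA2, the targets of the knockouts. Values are the log2 level of the BRG1 knockout minus that of the BRM knockout. The level was lower in the BRG1 knockout for EHF (-6.59), EREG (-4.52), CMPK2 (-4.35), PKNOX2 (-3.71), SMARCA4 (-3.42), GPR158 (-2.60), BTC (-2.41), LINC00431 (-2.35), PDE2A (-2.30) and KRT18 (-2.08). It was also lower there for KRT8 (-1.93), ETV4 (-1.71), BIRC3 (-1.11), CHD7 (-1.04), EGFR (-0.91), BOK (-0.87), ABCC3 (-0.81), SS18L1 (-0.41) and NFKB1 (-0.41). The level was higher in the BRG1 knockout for EED (0.48), BMF (0.61), EZH2 (0.61), FADS2 (0.70), CHAC1 (0.72), PHF19 (0.83), SMARCD3 (1.02), KEAP1 (1.14), TFEB (1.16), SYNGR1 (1.20), SEMA6C (1.23), GNAO1 (1.33) and OLFM2 (1.37). The values of the remaining genes were larger, for FTL (1.41), KCTD15 (1.42), COL1A1 (1.43), TRHDE (1.49), EPHB1 (1.83), IL32 (2.00), SMARCA2 (2.10), SEMA5A (2.63), CALB2 (2.89), ENSG00000093100 (2.93), MATN2 (3.55) and SNHG18 (6.02). For genes that fell in both, a negative value is a deeper fall in the BRG1 knockout and a positive one a deeper fall in the BRM knockout. With 3 libraries a group, no single library was tested as an outlier.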

How the results depend on the processing

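Treating the 6 knockout libraries as 1 group, which counts differences between the knockouts as noise, left 1383 genes higher and 970 lower, against 3558 and 3561, and gave KEAP1 a change of 0.067 (adjusted p = 0.92) in place of -0.04. Ordering by TPM gave 1524 members above and 2475 below, against 2309 and 2048. Without BRG1 knockout replicates 1 and 2, an alternative chosen after seeing the data, 3181 genes lay below. Without parental replicate 1 and BRG1 knockout replicate 3 together, 4138 lay below and 2860 members differed between the knockouts, against 2048 and 1410. Leaving out each library in turn, gave 2158 to 3528 genes higher, 2416 to 4923 lower, 2011 to 3438 above, 2169 to 3017 below and 1006 to 2185 members that differed. The count higher fell most without parental replicates 2 (2223) and 3 (2158), and the count that differed rose most without parental replicate 1 (2185). The causes were not tested. With the replicate block, 3315 genes were higher, 3351 lower and 1296 members differed, and the numbers are not stated to pair the libraries. Of 2184 values of the 104 named genes under 21 alternatives, 2083 kept direction and side of the threshold, 95 lost a call, 5 gained one and 1, that of KEAP1, changed sign. Genes with few reads in a group have unreliable fold changes.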
